A study of Ovis aries with 2 samples.

Results

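DHRSX and ZBED1 shared 1 annotated start in the pseudoautosomal region (PAR) of the sheep Y-chromosome. The CpG sites described are those from 1239555 to 1289555 on chromosome Y of ARS-UI_Ramb_v3.0, 25 kb on each side of that start, which lies at the middle of the window. The window held 1847 of the 372890 CpG sites measured on the chromosome, and 153761 of these lay in the PAR. The sites were chosen by position and not by their methylation. Lung DNA came from 1 Churro x Friesian F1 fetus at day 100 of gestation, sequenced once with PacBio and once with Oxford Nanopore (ONT). There was no second animal, no treated group and no replicate library, so values are given with the spread between CpG sites (SD) and for both platforms side by side, without p-values. Bulk lung holds many cell types, and a site methylated in some cells cannot be told apart from one methylated on some copies in every cell.

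DHRSX encodes a dehydrogenase/reductase of the short-chain family with a role in making dolichol, the lipid carrier of sugars for protein glycosylation. ZBED1 encodes a transcription factor with a BED zinc finger, derived from a transposase and tied to cell proliferation and ribosomal protein genes. The PAR is the stretch in which the X- and Y-chromosomes still pair and recombine, so most of its genes are present on both. The paper lists a few genes of the sheep Y PAR that it did not find in the PAR of the X. In mammals, CpG-dense DNA at gene starts is usually free of methylation, whereas most CpG sites in gene bodies and between genes are methylated.

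Both genes were annotated on the minus strand, so gene bodies lie to the left of the start (lower coordinates) and the upstream DNA lies to the right. DHRSX ran from the start down to 1126173, over 138383 bp. ZBED1 ran from the same start down to 1245070, over 19486 bp, and so lay within the interval of DHRSX. The other annotated gene in the window was the snoRNA RU109, on the plus strand from 1258275 to 1258403. The next gene on the right, a lncRNA (LOC114111205), was annotated from 1293319 to 1307995, outside the window, so that the whole right side had no annotated gene. Exon and UTR borders were not used here.

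Depth was uneven between the platforms. PacBio had a median of 44 calls per CpG site in the window, with a range of 17 to 64, against a median of 60 in the PAR. ONT had a median of 169 valid calls in the window, with a range of 79 to 221, and also 169 in the PAR. In the male-specific region the medians were 39 on PacBio and 89 on ONT, and the part that reads of the X copy have in the PAR values was not tested. PacBio depth fell towards the start, from a median of 56 calls per site at 20 to 25 kb on the left to 35 within 500 bp of it.

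Over the whole window, methylation averaged 70.7% ± 33.4 (SD, 1847 sites) by PacBio and 61.7% ± 30.6 by ONT. The PAR as a whole had 74.8% and 65.1%. A site was counted as low where both platforms gave under 30%. In the window 317 sites were low, which is 17.2%, beside 7.61% of all CpG sites in the PAR and 11.9% of those on the chromosome. Low sites made up 15.4% of the left side and 19.2% of the right side, and 270 of the 317 belonged to 1 stretch at the start itself.

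**Figure D1:**
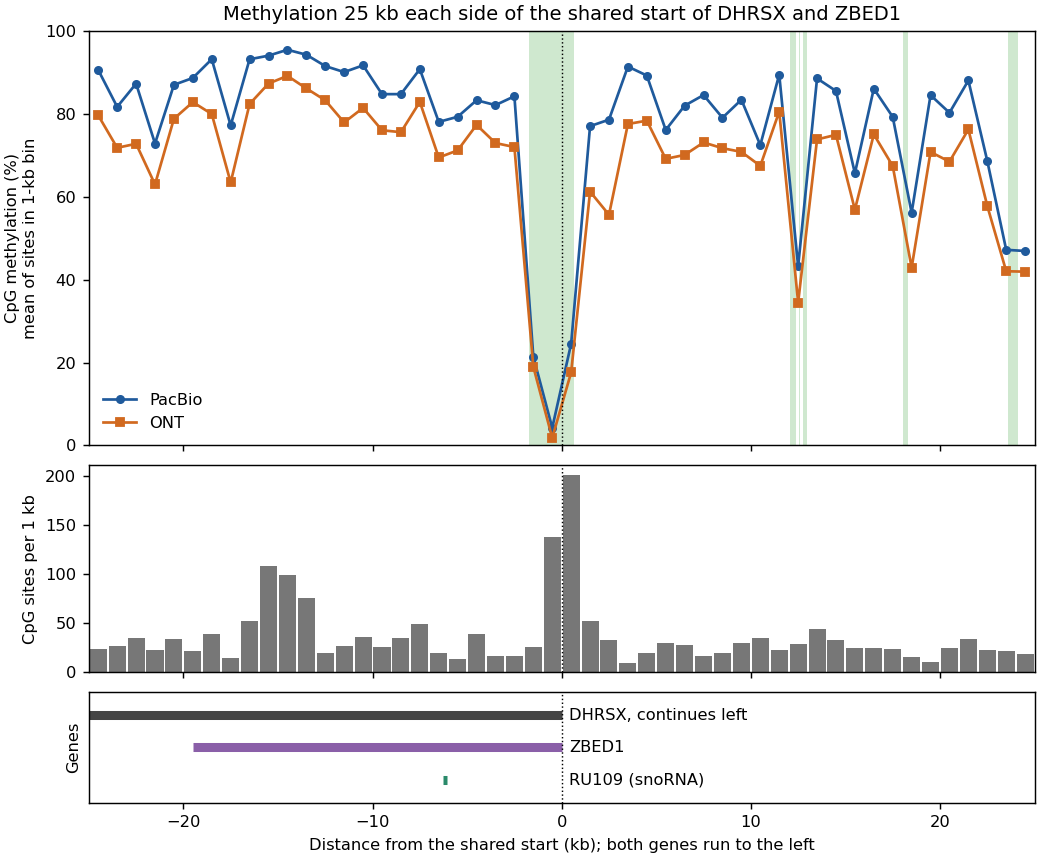
Mean CpG methylation in 1-kb bins (percent, PacBio as circles and ONT as squares), number of CpG sites per bin and annotated genes, against distance from the shared start in kb. Green bands mark low-methylation stretches. Both platforms dropped to 4.26% and 1.83% in the bin just left of the start, CpG sites peaked at 201 in the bin just right of it, and the other low bands lie on the right side.

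The shared start was unmethylated on both platforms. Within 500 bp on either side, 207 CpG sites had a mean of 4.70% ± 3.95 (SD) on PacBio and 2.93% ± 2.17 on ONT, and 191 of them were under 10% on both. The CpG at the annotated start had 4.20% on PacBio from 36 reads and 1.83% on ONT, where 3 of 164 valid calls were methylated. Pooled over all 37763 valid ONT calls in this kilobase, 1074 were methylated, a share of 2.84% (95% Wilson interval 2.68 to 3.02). Intervals cover counting error only and take all calls as independent. Neighbouring sites share reads, so the intervals are too narrow. No site of the 207 exceeded 20% on ONT, and 3 did on PacBio.

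The 2 flanks of the start differed a little. The 94 sites in the 500 bp on the gene-body side had 4.22% by PacBio and 1.92% by ONT, whereas the 112 sites on the upstream side had 5.10% and 3.79%. The medians were 3.7 and 3.5% by PacBio and 1.53 and 3.78% by ONT, so the PacBio medians did not give the upstream side as higher. On ONT the pooled shares were 1.88% (1.7 to 2.09) on the gene-body side and 3.78% (3.52 to 4.06) upstream. These intervals did not overlap, but as they ignore shared reads, this does not test the difference. On PacBio the pooled shares of 3.0% (2.47 to 3.63) and 3.77% (3.19 to 4.45) had overlapping intervals. The ONT strands also differed at this low level. Of the calls in the low stretch described next, 4.09% were methylated on the plus strand (3.85 to 4.34) and 2.33% on the minus strand (2.15 to 2.53).

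A low-methylation stretch was defined as joined runs of 5 consecutive CpG sites with a mean under 30% on both platforms. The stretch that held the start covered 2279 bp, from 1262803 to 1265081, and reached 1752 bp into the gene bodies but 526 bp upstream. It held 276 CpG sites, or 121 per kb, with 158 on the left of the start and 117 on its right. Because the sites were picked as low, their level is a description. It was 5.54% ± 6.90 (SD, 276 sites) on PacBio and 3.38% ± 4.53 on ONT. In all, 248 of the 276 sites were under 10% on both platforms. ONT gave no methylated call at 9 sites, all left of the start, with 164 to 217 valid calls each, which allows a share of up to 1.38 to 1.83% per site. PacBio read higher than ONT at 202 of the 276 sites, by 2.16 percentage points ± 4.79 (SD) on average. The size of this gap changed with the PacBio measure. From the estimated PacBio counts the stretch had 4.15%, the gap was 0.769 points ± 5.19 (SD), and PacBio was higher at 161 of the 276 sites.

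A few sites inside the stretch were high on PacBio without being so on ONT. The widest gap was at 385 bp upstream, where PacBio gave 38.8% from 35 reads and ONT gave 4.0% from 175 valid calls. A site 150 bp into the gene bodies had 21.9% and 1.60%. A site 401 bp upstream had 24.3% and 6.01%. Near the right edge, sites at 502 and 509 bp had 40.3 and 37.0% on PacBio, against 9.64 and 13.2% on ONT. The platforms differed by more than 20 points at 5 of the 276 sites, each time with PacBio higher. Only at the stretch's outer edges did ONT also pass 20%, with 42.7% and 43.0% at the last 2 sites on the left and 22.5% at the last site on the right.

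**Figure D2:**
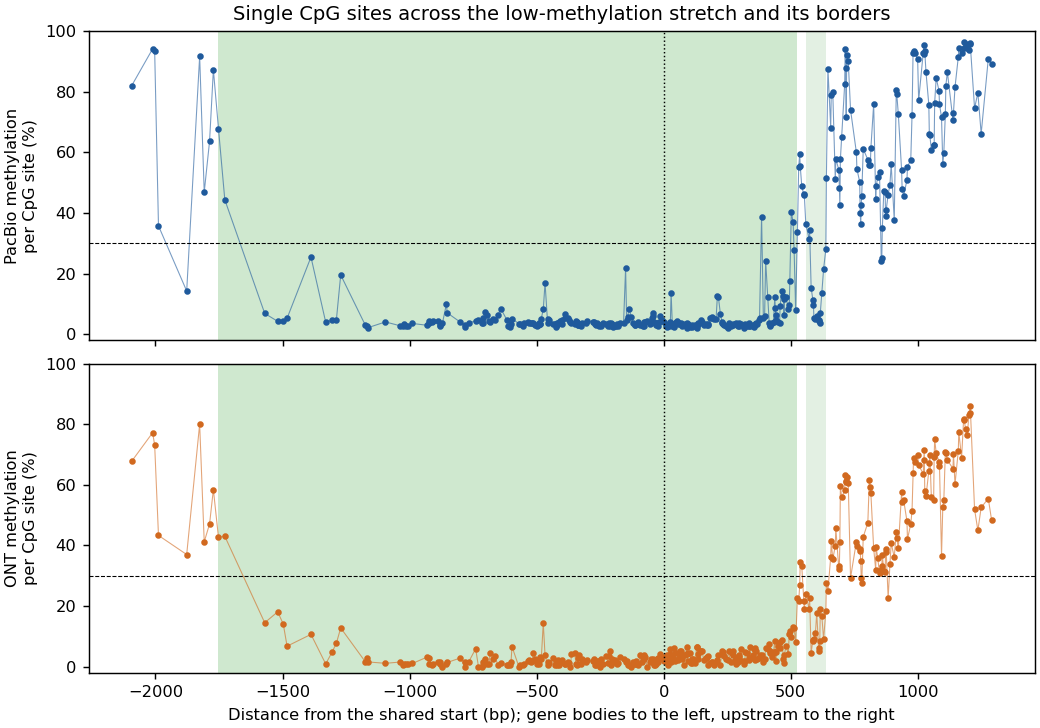
Methylation of single CpG sites (percent, PacBio above and ONT below) against distance from the shared start in bp, with gene bodies on the left. The dark green band is the low stretch at the start, the pale band a second low stretch, and the dashed line the 30% limit. PacBio sites on the left go from 6.90% at 1570 bp to 93.5% at 2003 bp over few, scattered sites, and those on the right climb over many sites between 526 and 1146 bp. Both climbs are uneven.

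The 2 borders of the stretch differed in their number of CpG sites. On the left, the first run of 5 sites at or above 70% on both platforms began 2003 bp from the start, 251 bp beyond the stretch, with means of 91.0% and 73.6%. Only 6 CpG sites lay in this gap, at 27.6 CpG sites per kb, and they ranged from 14.3 to 91.7% on PacBio. Inside the border, the site 1727 bp from the start had 44.4% on PacBio and 43.0% on ONT. The site 1570 bp away already had 6.90% and 14.5%. No CpG site was measured between them, the widest gap in the stretch, so the fall cannot be placed more closely than these 157 bp.

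On the right, the rise held many more CpG sites. The first run at or above 70% on both platforms began 1146 bp from the start, 620 bp beyond the stretch, and 107 CpG sites lay between. By PacBio alone, the first such run came 114 bp beyond the stretch on the right and 236 bp beyond it on the left, but on the right PacBio fell again past that peak, and 56 of the 107 sites were between 30 and 70% by PacBio. Their mean was 56.4% ± 24.4 (SD) on PacBio and 42.9% ± 19.1 on ONT, and 45 of the 107 sites were between 30 and 70% on both platforms. Methylation did not climb evenly across them. The 6 sites at 531 to 553 bp rose to 51.9% on PacBio and 26.2% on ONT. Just past them, a second low stretch of 17 sites at 559 to 640 bp had 17.1% and 13.9%, and its lowest PacBio site was at 3.70%. At 714 bp PacBio gave 94.3% and ONT 63.2%. At 775 bp the values were 36.4% and 35.0%, and at 858 bp 25.3% and 33.1%. From 1180 to 1206 bp, 7 sites had 93.9 to 96.3% on PacBio and 76.3 to 85.9% on ONT. Past this peak the values fell again. Sites from 1223 to 1290 bp had 66.2 to 90.9% on PacBio and 45.0 to 55.5% on ONT. The 1-kb bins at 1 to 2 and 2 to 3 kb on the right had 77.1 and 78.7% on PacBio, but 61.3 and 55.7% on ONT.

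Part of this right border had fewer calls. At 57 consecutive sites from 513 to 826 bp, PacBio had 17 to 21 reads, against a median of 34 at the remaining sites within 2 kb on the right. In addition, 2 shorter blocks, 17 sites at 255 to 327 bp with 18 to 20 reads and 3 sites at 425 to 437 bp with 20 reads, lay inside the low stretch. The number of ONT reads over the 57 sites was nearly flat, at 207 to 213. However, 26.8 to 48.8% of these ONT reads carried no call there, with a median of 39.6%, against a median of 6.18% at the remaining sites within 2 kb on the right. A site was counted as having reduced depth where its PacBio calls were at most 0.65 of the median within 2 kb. This applied to 78 of the 828 sites on the right side (9.42%) and to 1 of the 1018 on the left, beside 0.895% of the CpG sites in the PAR. The part of this change in depth in the methylation values of the border was not tested.

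The sites at reduced depth on the right border were mostly those nearer the start, and they took in the whole second low stretch. In the border, the 55 sites at reduced depth had 48.3% by PacBio and 33.3% by ONT, whereas the other 52 sites had 65.0% and 53.1%, so depth and place along the rise cannot be told apart here. In the low stretch, all 23 sites at reduced depth had 6.22% and 4.98%, beside 5.48% and 3.23% for the other 253. The 17 sites of the first block had 3.12% and 3.21%, and the 3 sites at 425 to 437 bp had 6.73% and 5.53%. The last 3 sites of the stretch, at 513, 519 and 526 bp, had 27.8, 8.10 and 33.8% on PacBio. Without the sites at reduced depth, a setting added after the data were seen, the rule put the right edge at 834 bp in place of 526 bp. The edge moved because sites up to 509 bp then adjoined the site at 834 bp, which itself had 44.7% on PacBio and 32.0% on ONT. The 57 sites left out between them had 46.6% and 32.2%, so this is no sign of a longer low stretch. The left edge stayed at 1752 bp.

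**Figure D3:**
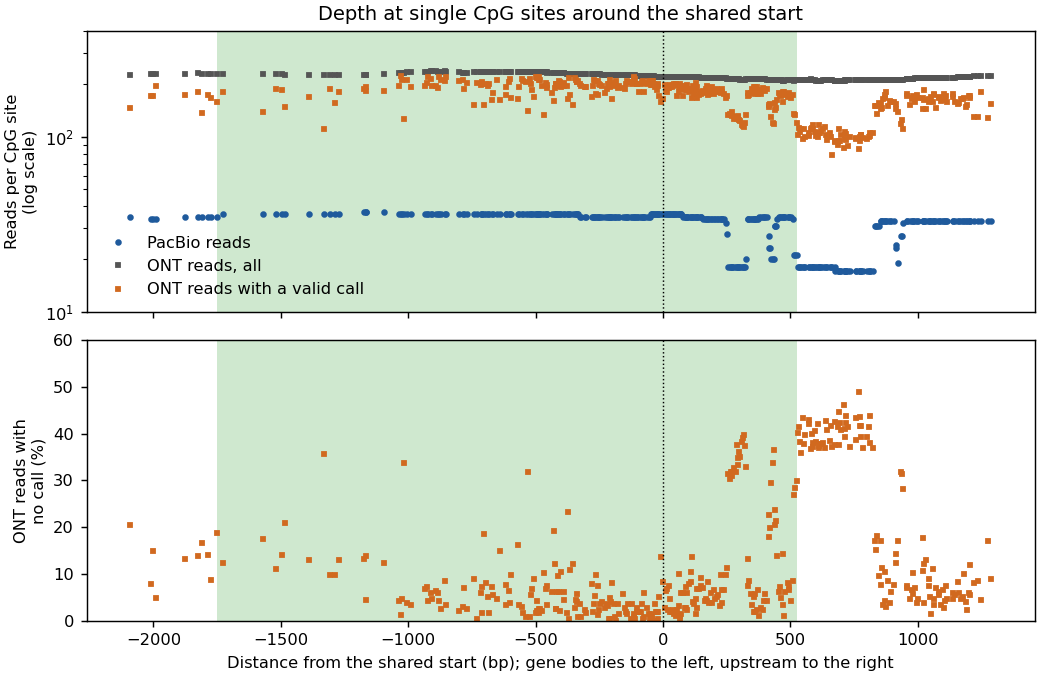
Reads per CpG site (above, log scale) and percentage of ONT reads with no call (below) against distance from the shared start in bp, with the low stretch in green. PacBio reads dropped to between 17 and 21 at 513 to 826 bp on the right, where the count of all ONT reads stayed at 207 to 213 and the share without a call had a median of 39.6%.

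The gene-body side was highly methylated from the left border to the end of the window. Outside the low stretch its 860 sites had 89.2% ± 13.3 (SD) on PacBio and 80.4% ± 12.9 on ONT. No other low stretch was found there. All 23 bins of 1 kb beyond 2 kb from the start had 72.9 to 95.5% on PacBio and 63.0 to 89.2% on ONT. Within ZBED1, 699 sites outside the low stretch had 90.2% ± 12.4 and 81.6% ± 12. Past the end of ZBED1, where DHRSX alone was annotated, the 161 sites of the window had 85.1% ± 15.8 and 74.9% ± 15.3. The rest of DHRSX was alike, as all 3178 of its sites beyond ZBED1 had 86.0% ± 15.7 and 75.6% ± 15.2. The 2 CpG sites in RU109 had 61.9% on PacBio and 70.7% on ONT.

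The gene bodies also held a second CpG-dense part, with the opposite state to the start. In the gene bodies, 3 adjoining bins at 13 to 16 kb left of the start, inside both ZBED1 and DHRSX, had 76, 99 and 108 CpG sites. Their 283 sites, 97.5 per kb, had 94.7% ± 6.44 (SD) on PacBio and 87.7% ± 7.21 on ONT, and 252 of them were above 80% on both platforms. The lowest single site was at 47.0% on PacBio and 51.8% on ONT. Depth in this block was a median of 44 PacBio calls and 217 ONT reads, near that of the window. In the PAR, 72 of 6996 bins had at least 75 CpG sites, of which 39 were under 30% on both platforms and 22 were above 80% on both. The window held 5 of the 72, 2 at the start and 3 in this block. The bin just right of the start, with 201 CpG sites, was the densest of the 6996.

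The upstream side was less methylated and more variable than the gene bodies. Its 655 sites outside low stretches had 77.8% ± 19.2 (SD) on PacBio and 65.5% ± 18.4 on ONT. The difference from the gene-body side was -11.4 percentage points by PacBio and -14.9 by ONT. The single sites of the 2 sides overlapped widely, as their SDs show, and with 1 animal the difference has no replicate check. Averaged over 1-kb bins, which gives CpG-dense bins no extra weight, the difference was smaller, at -7.00 and -9.55 points. Without the CpG-dense block it was -8.75 and -11.3 points. The right border within 2 kb also counted among the upstream sites. Beyond 2 kb, and without the CpG-dense block and the low stretches, the left had 86.9% and 77.0% and the right 80.2% and 68.7%, a difference of -6.74 and -8.32 points.

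The difference between the sides varied with distance and showed no steady trend. In bands that leave out the low stretches and the CpG-dense block, PacBio at 2 to 5 kb gave 83.3% on the left and 84.1% on the right, while ONT gave 75.1% and 66.4%. At 5 to 10 kb the left had 85.4% and 76.9%, and the right had 80.9% and 70.8%. At 10 to 15 kb the right was apart from the left by -8.30 points on PacBio and -8.70 on ONT. At 15 to 20 kb the difference was widest, with -12.8 and -13.1 points. At 20 to 25 kb it was -8.94 and -8.57 points. With the low stretches and the dense block kept, the differences in these last 3 bands were -17.1, -17.6 and -15.2 points on PacBio and -18.9, -19.9 and -13.8 on ONT. At 2 to 5 kb the lower right side rested on ONT alone, and from 5 kb outwards both platforms gave the right side as lower.

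Of the 7 low stretches in the window, 6 lay on the upstream side and none on the gene-body side apart from the one at the start. Low stretches were not counted per kb over the PAR, so whether this number or its split between the sides is unusual was not tested. Besides the second stretch at 559 bp, 3 short ones lay together at 12060 to 12962 bp, with 5, 6 and 7 CpG sites. Their means were 29.3, 24.8 and 25.2% by PacBio, and 21.9, 20.7 and 26.0% by ONT. The 1-kb bin that held them had 43.2% and 34.5%, the lowest beyond 2 kb on either side. A stretch of 7 sites at 18041 to 18302 bp had 31.3% and 19.8%, since joined runs can average above the limit that each run meets. The last stretch, of 14 sites at 23619 to 24112 bp, had 20.3% ± 15.0 and 18.9% ± 10.4. These 5 far stretches had 15.5 to 82.2 CpG sites per kb, against 121 at the start. With runs of 11 sites, 4 stretches were found in the window.

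Set beside the other protein-coding gene starts of the PAR, the shared start was near the middle in length and had the most CpG sites. The PAR had 45 such genes at 43 distinct starts, and 30 starts had a low stretch. The stretch of DHRSX and ZBED1 was the 18th longest of the 43 starts, or the 15th of 26 distinct stretches, whose median length was 2342 bp. The longest were at SHOX, a homeobox gene of skeletal growth, with 20672 bp, at TBL1X, a subunit of a corepressor complex, with 4656 bp, and at ASMTL with 3663 bp. The next longer one was at P2RY8, a G-protein-coupled receptor, with 2285 bp, and the next shorter at GTPBP6, with 2129 bp. The lengths at P2RY8 and at the shared start differed by less than the edges moved between settings.

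Within 500 bp, 26 of the 43 starts had under 30% on both platforms, with medians of 3.98% on PacBio and 1.89% on ONT, and the shared start, at 4.70% and 2.93%, was the 18th lowest by PacBio and the 21st lowest by ONT. Its 207 CpG sites in that kilobase were the most of all 43 starts, before 166 at the next and a median of 60. Its 121 CpG sites per kb of low stretch were also the highest, beside a median of 68.4. The placement was lopsided, as at most of these starts. The stretch ran 1752 bp downstream and 526 bp upstream, and 19 of the 26 starts under 30% had the shorter part upstream, with medians of 1484 bp downstream and 746 bp upstream. These 26 starts lay in 23 distinct stretches, as 3 pairs of starts shared 1 stretch each. With a median of 35 PacBio calls in that kilobase, only 1 of the 43 starts had fewer.

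**Figure D4:**
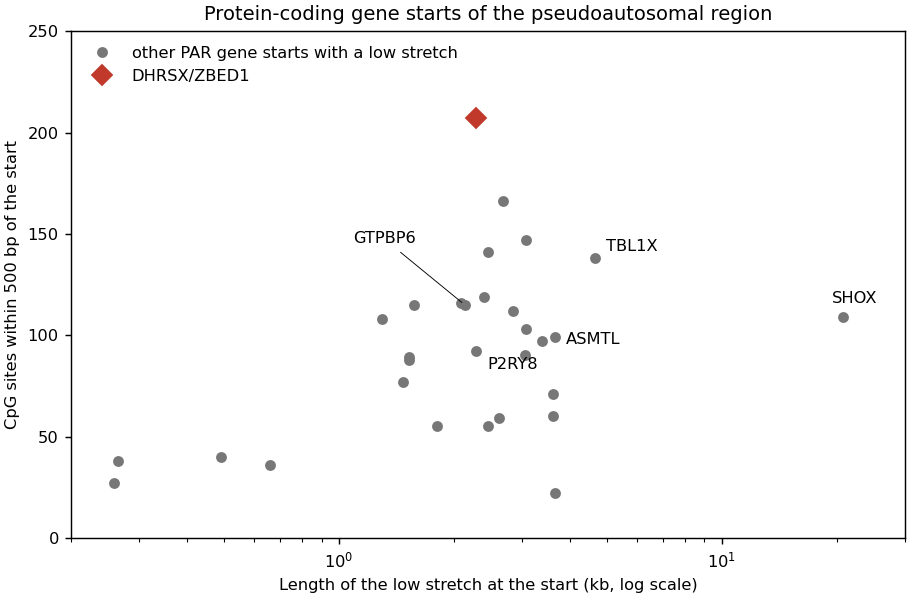
CpG sites within 500 bp of the start against the length of the low stretch in kb (log scale) for the 30 protein-coding gene starts of the PAR that had a low stretch. The shared start of DHRSX and ZBED1 (diamond) sits highest, with 207 CpG sites, at a length of 2279 bp near the middle of the range of 258 to 20672 bp.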

How the data were processed

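The authors called CpG methylation on PacBio HiFi reads with Primrose and pb-CpG-tools, and on ONT reads with Dorado and modbam2bed after alignment with Winnowmap. The authors deposited a modelled percent of methylation per CpG site for PacBio, with its read count and estimated methylated count. For ONT the deposited counts of unmethylated, methylated and in-between calls per strand were used, where the authors took calls under 20% and over 80% probability as unmethylated and methylated. The ONT score column, deposited per position, served to check the layout. The deposited ONT percent was recomputed from the counts with both strands of a CpG added.

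Regional methylation was taken as an unweighted average of CpG sites that had at least 5 valid calls on both platforms, which every site had. ONT reads with no call are those counted over a site but in none of the 3 classes. Gene positions and strands came from the NCBI annotation listed by the study. Distances are in bp from the shared start. Python 3.11.15, NumPy 2.4.6 and pandas 2.3.3 were used. The search for low stretches was tested on simulated data, where all 200 planted stretches were recovered. These were longer than the short stretches found here, with sharp edges and an even, highly methylated background. The simulation therefore does not tell how well short stretches or gradual borders are found. Named genes are DHRSX, ZBED1, other genes overlapping the window and, among gene starts, the 3 with the longest stretch and the next above and below. Members and lists were chosen with earlier results of these data known. Other limits, run lengths, depth minimums and weightings were tried. No sequence is printed, since no genome sequence was used here.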

Additional observations from a re-analysis of the deposited data

How the results depend on the processing

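Of 81 values under another setting, 68 stayed near the main value. The limit was the SD between the platforms or, for lengths, counts and places, a factor of 1.5. That SD is wide where the platforms disagree, so it is then a loose limit. Values with no minimum of calls could not move, since every site had at least 5 valid calls. The difference between the sides, the only result with a sign, kept its direction in all settings. Within 500 bp of the start, PacBio gave 3.39% with all calls pooled and 3.25% from estimated counts. With 1000 bp on each side, which takes in the right border, PacBio gave 16.3% and ONT 11.2%. The difference between the sides was -7.67 points on PacBio within 10 kb, -7.00 on PacBio and -9.55 on ONT over 1-kb bins, -8.75 and -11.3 without the CpG-dense block, and -6.74 and -8.32 without that block and beyond 2 kb. The last 2 settings, like the one without sites at reduced PacBio depth, were added after the data were seen. The window held 4 low stretches with a limit of 20% and 4 with runs of 11 sites. The stretch at the start kept its left edge between 1727 and 1787 bp in all settings. Its right edge lay between 502 and 659 bp, save for 834 bp without sites at reduced depth, where the rule joined sites across those left out. No paired analysis was possible because there is 1 library per platform. With 1 animal, nothing here tells how the borders vary between sheep, and neighbouring sites share reads.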
